A study of Mus musculus with 2 samples.

Results

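Protein disulfide isomerases of the endoplasmic reticulum (ER) were examined in pancreatic beta cells of mutant mice, together with Ero1a, the general oxidase that recharges them. The 10 genes were chosen by symbol, as named members of this enzyme family plus the oxidase: P4hb, Pdia3, Pdia4, Pdia5, Pdia6, Txndc5, Txndc11, Erp44, Erp29 and Ero1a. All 10 were found among the 55487 genes listed for each library. RNA was sequenced from 2 libraries of sorted cells, which form 1 group. The mice were 2 months old and carried MytF/F, Myt2F/F and Myt3F/F with RipCre, a Cre recombinase driven by the rat insulin promoter, so that deletion is directed to beta cells. The second library is labelled as a duplicate of the first, each pooled male and female material, and nothing says whether it came from other mice. Spread and p-values between the libraries may therefore be technical. No control beta cells enter these comparisons, and every level below describes mutant cells, not a change made by the mutation.

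Disulfide isomerases form, break and rearrange the sulfur bridges of proteins that are folding in the ER. An oxidase of the Ero1 family takes electrons from the reduced isomerase and passes them to oxygen, which yields hydrogen peroxide. Beta cells depend on this chemistry because proinsulin folds only when its disulfide bridges are correctly paired.

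Many catalytic domains of the family carry an active site that is encoded by 4 consecutive codons: TGT or TGC, then GGN, then CAT or CAC, then TGT or TGC again. Active sites of other sequence were not searched, so a count of these runs is not a count of active sites. These codons were searched in frame in the principal coding sequence of each gene (GENCODE M21, GRCm38). Of the 10 genes, 6 held at least 1 such run, 13 runs in all. Pdia4 and Txndc5 held 3 each, P4hb, Pdia3 and Pdia6 held 2 each, and Pdia5 held 1. Among 21506 coding genes searched in the same way, 37 held a run (0.172%). Only 5 of these held 2 or more, and all 5 were members named above. The runs are printed for P4hb and Pdia3, the most abundant members, and for Pdia5, which has 1. Capitals mark the 4 codons, with 9 coding bases on each side.
P4hb site 1: gccccgtggTGTGGCCACTGCaaagctctg
P4hb site 2: gccccttggTGTGGTCACTGCaagcagcta
Pdia3 site 1: gccccctggTGTGGACATTGCaagaggctt
Pdia3 site 2: gccccttggTGTGGCCACTGTaagaatctg
Pdia5 site 1: gccccatggTGTGGACATTGTaagaaaatg

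The 4 members without a run were Erp44, Erp29, Txndc11 and Ero1a. Erp44 is a retrieval factor with a different active site, Erp29 is an escort protein that lacks one, and Ero1a is an oxidase of another fold.

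The targeted genes still gave reads, 3891 and 2552 for Myt1 in libraries 1 and 2, 2230 and 1523 for Myt1l (Myt2) and 3644 and 2203 for St18 (Myt3). Whole-gene counts include exons outside a deleted stretch, so they do not check the deletion. Library 1 held 50121771 counted reads and library 2 held 39003197. At these depths 3 reads, the limit that a count of 0 allows, correspond to 0.0599 and 0.0769 CPM (reads of a gene scaled to a common library total). All 10 beta-cell markers checked reached 1 CPM in each library, led by Ins2, Ins1 and Iapp. Summed over their lists, markers of alpha cells stood at 1401 and 1158 CPM in libraries 1 and 2, of delta cells at 1660 and 1247, of PP cells at 979 and 1215, and of duct cells at 885 and 1230. Endothelial, mesenchymal and immune markers summed to between 10.1 and 58.5 CPM. Counts differed between the libraries by more than sampling noise, with a chi-square of 28.6 per degree of freedom over 20681 genes with 10 or more reads. Levels are given as TPM (which also divides each count by the length of the gene) wherever genes are compared with each other, and as CPM where one gene is compared between libraries. Intervals cover counting error only.

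All 10 members were expressed, and 4 of them made up most of the family's transcripts. P4hb, Pdia3, Pdia6 and Pdia4 took 89.6% of the family's summed TPM in library 1 and 89.7% in library 2. The 10 genes together took 0.450% of the counted reads in library 1 and 0.4999% in library 2. The median member stood at 132 TPM, against 5.64 TPM for the median of all 20681 genes tested. Among the 13566 genes that reached 1 CPM in both libraries, as all 10 members did, the median was 14.8 TPM.

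P4hb encodes PDI itself, the founding member, which also serves as a subunit of collagen prolyl 4-hydroxylase and of the microsomal triglyceride transfer protein. It stood at 1718 TPM in library 1 and 1743 TPM in library 2, a mean of 1730 ± 17.9 TPM (SD, n = 2). This placed it 26th and 25th among all listed genes, and it held the narrowest relative spread of the 10. Pdia3 encodes ERp57, the isomerase that works on glycoproteins bound to calnexin and calreticulin. It stood at 1004 TPM in library 1 and 1085 TPM in library 2, a mean of 1045 ± 57.2 TPM (SD, n = 2). P4hb exceeded Pdia3 in both libraries, 1.71-fold (95% interval 1.69 to 1.73) and 1.61-fold (1.59 to 1.62). With the length of the principal transcript in place of the length behind TPM, the ratio was 1.46. The intervals do not cover this choice of length.

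Pdia6 encodes P5, an isomerase that associates with the chaperone BiP. It stood at 444 TPM in library 1 and 566 TPM in library 2, a mean of 505 ± 85.9 TPM (SD, n = 2). Pdia4 encodes ERp72, a large isomerase with an additional catalytic domain. It stood at 323 TPM in library 1 and 439 TPM in library 2, a mean of 381 ± 81.9 TPM (SD, n = 2). Library 2 was the higher one for both genes, and their spread was the widest of the family.

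The other 6 members were lower. Txndc5, also known as ERp46 and an isomerase with 3 catalytic domains, stood at 130.2 TPM in library 1 and 134 TPM in library 2. Erp44, which captures Ero1 enzymes and unassembled proteins in the early Golgi and returns them to the ER, stood at 124 TPM and 141 TPM. Pdia5, known as PDIR, stood at 53.7 TPM and 61.9 TPM, a mean of 57.8 ± 5.75 TPM (SD, n = 2). Txndc11, a membrane-bound relative described as a partner of the dual oxidases, stood at 35.6 TPM and 38.8 TPM. No dual oxidase gene or maturation factor (Duox1, Duox2, Duoxa1, Duoxa2) reached 1 CPM in either library, and the most any of them had was 8 reads. Ero1a stood at 34.8 TPM and 37.3 TPM, a mean of 36.1 ± 1.77 TPM (SD, n = 2). Erp29, the escort protein without an active site, stood lowest at 24.9 TPM and 27.5 TPM.

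**Figure D1:**
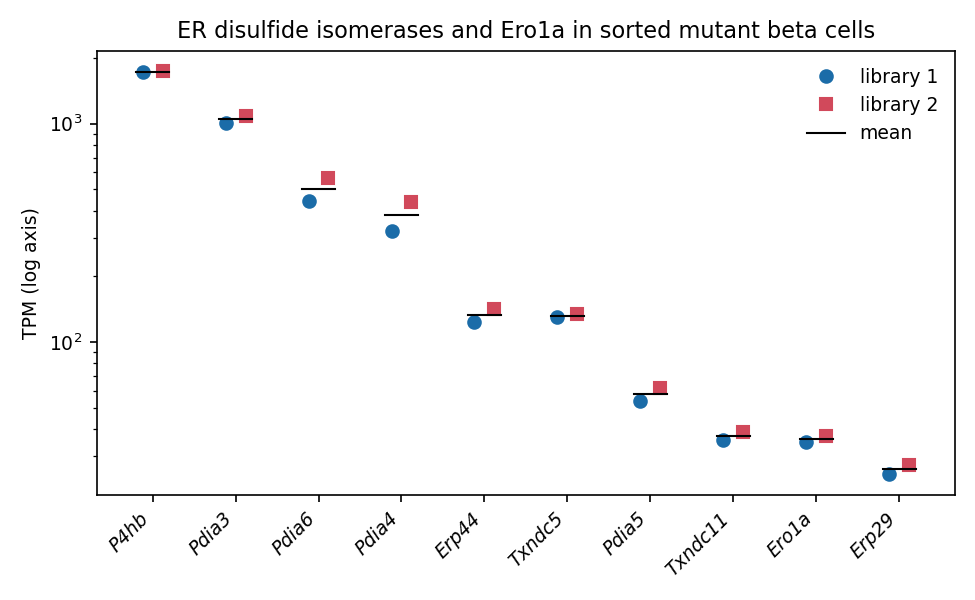
Level of each member in the 2 libraries of sorted mutant beta cells, in TPM on a log axis (circles, library 1; squares, library 2; black lines, mean). P4hb is highest at a mean of 1730 TPM, and the second library lies above the first for all 10 genes.

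The order of the members was P4hb, Pdia3, Pdia6, Pdia4, Erp44, Txndc5, Pdia5, Txndc11, Ero1a and Erp29. An exact binomial test of the length-scaled counts was made for all 45 pairs in both libraries, with Benjamini-Hochberg adjustment over the 90 tests. Among the 9 neighbouring pairs, the values of the libraries overlapped in 2. Erp44 and Txndc5 changed places, with a ratio of Erp44 over Txndc5 of 0.950 in library 1 (95% interval, 0.923 to 0.979) and of 1.05 in library 2 (1.02 to 1.09). With the lengths behind the deposited TPM, Txndc11 and Ero1a could not be separated, with ratios of 1.02 (0.979 to 1.07, adjusted p = 0.324, exact binomial test) and 1.04 (0.992 to 1.09, adjusted p = 0.104). The other 44 pairs passed the test in both libraries, although for Erp44 and Txndc5 the direction differed.

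The lower part of this order depended on the gene length used. The deposited TPM values correspond to the length of all merged exons of a gene. That length counts every annotated exon, including those of rare transcripts, and for Txndc11 it is 8835 bases against 3095 bases for the principal transcript. Dividing the mean CPM by the length of the principal transcript instead gave 38.8 CPM per kilobase for Txndc11 and 32.3 for Pdia5, so that these 2 genes changed places, as did Txndc5 (76.3) and Erp44 (63.0). Erp29, at 16.7 CPM per kilobase, then stood above Ero1a at 15.8, and Txndc11 and Ero1a were no longer neighbours in the order. P4hb exceeded Txndc11 46.5-fold by mean TPM and 16.3-fold with the principal transcripts. The first 4 places were the same with both lengths.

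**Figure D2:**
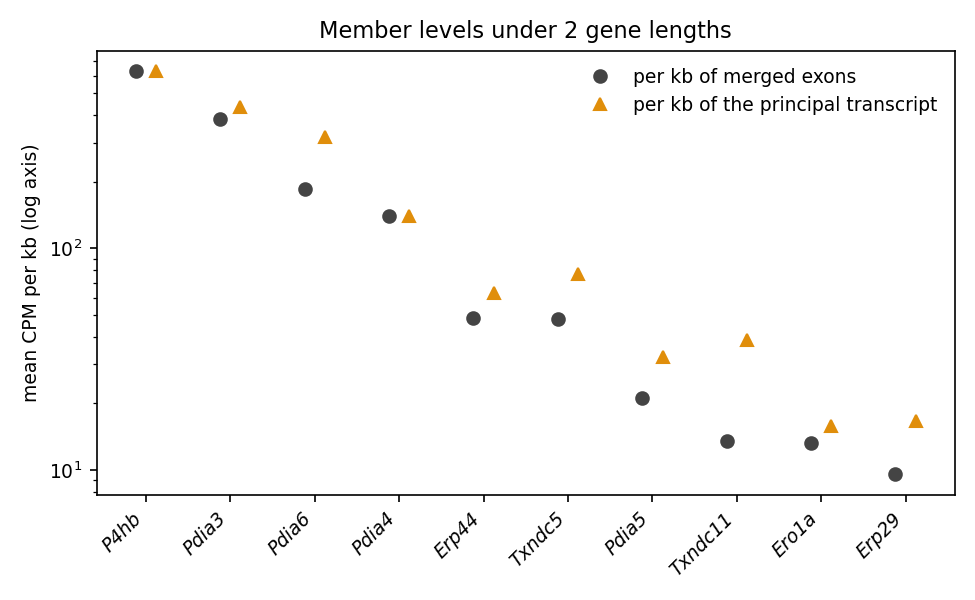
Mean CPM of the 2 libraries per kilobase for each member, on a log axis, with the length taken as all merged exons (circles) or as the principal transcript (triangles). The 4 highest members keep their order, whereas Txndc11 moves from 13.6 to 38.8 CPM per kilobase.

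The annotation limits the counts of some members. For Erp29, 26.4% of the exon bases lie under exons of other genes, mainly Naa25 on the opposite strand, and 24.3% of its 50-base words occur in other genes. For Txndc5 the shares are 11.9% and 8.85%, with Gm31834 and Bmp6 on the opposite strand. The library kit does not mark strand, so reads in these stretches cannot be assigned to one gene and the counts of Erp29 and Txndc5 are uncertain to that extent. In the other 8 members no more than 1.92% of words were shared and no more than 1.34% of exon bases overlapped other exons. In GRCm38, P4hb (ENSMUSG00000025130) occupies chr11:120560298-120573253 (minus strand, 11 merged exons) and Pdia3 (ENSMUSG00000027248) occupies chr2:121413775-121438687 (plus strand, 13 exons). Pdia4 (ENSMUSG00000025823) occupies chr6:47796141-47813430 (minus strand, 10 exons) and Pdia6 (ENSMUSG00000020571) occupies chr12:17266545-17284770 (plus strand, 12 exons). Ero1a (ENSMUSG00000021831, named Ero1l in GENCODE M21) occupies chr14:45283087-45318771 (minus strand, 18 exons).

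Ero1a was the less abundant of the Ero1 transcripts in these cells. Its relative Ero1b, which is known for its high expression in the pancreas, stood at 1182 TPM in library 1 and 1348 TPM in library 2. Ero1b thus exceeded Ero1a 33.9-fold in library 1 and 36.1-fold in library 2 (mean log2 ratio of Ero1a over Ero1b −5.13 ± 0.06, SD, n = 2), and 46.0-fold with the lengths of the principal transcripts. Both libraries passed the exact binomial test, and 9.39% of the words of Ero1b occur in other genes. By TPM, Ero1b was close to Pdia3 in level, with means of 1265 and 1045 TPM, while P4hb exceeded Ero1a 49.3-fold and 46.7-fold. The closeness depended on the length used, as without length scaling the means were 3074 CPM for Ero1b and 1198 CPM for Pdia3. With the principal transcripts P4hb exceeded Ero1a 40.1-fold, so that Ero1b then stood above P4hb. Erp44, which retains Ero1 proteins, exceeded Ero1a 3.55-fold and 3.79-fold.

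Other enzymes that oxidise or reduce thiols in the secretory pathway were expressed at moderate levels. Of the 12 genes listed, 11 reached 1 CPM in each library, and the median over all 12 was 62.4 TPM. Besides Ero1b, the highest were the selenoprotein genes Selenos and Selenom, with means of 243 ± 22.2 and 191 ± 6.64 TPM (SD, n = 2). Prdx4, the ER peroxiredoxin that consumes hydrogen peroxide made by Ero1 enzymes, stood at 25.9 TPM in library 1 and 19.8 TPM in library 2, below Ero1a in both. This order turned with the lengths of the principal transcripts, by which Prdx4 stood at 1.13 times the level of Ero1a. Of the ER glutathione peroxidases, Gpx7 was the lowest gene detected at 2.92 ± 0.0861 TPM, and Gpx8 had 4 reads and 1 read.

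**Figure D3:**
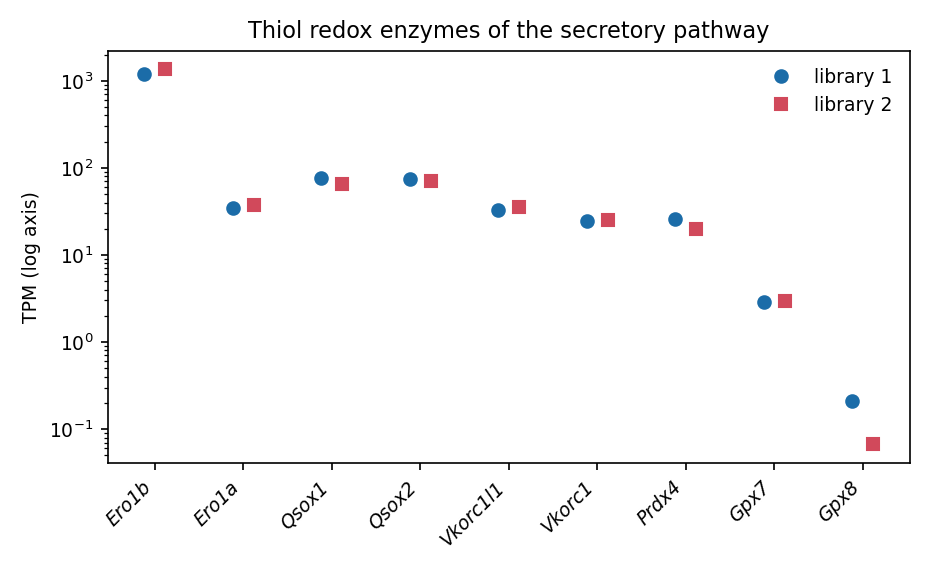
TPM of Ero1b, Ero1a and other thiol redox enzymes in the 2 libraries, on a log axis. Ero1b stands at 1182 and 1348 TPM and Ero1a between 34.8 and 37.3 TPM.

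Relatives of the isomerases outside the 10 had a lower median level. Of 17 other genes of the family, 11 were detected, with a median of 12.8 TPM over all 17. Creld2 led with 262 ± 69.8 TPM (SD, n = 2), followed by the reductase Dnajc10 (ERdj5) with 115 ± 5.34 TPM and the membrane-bound Tmx1 with 72.8 ± 2.49 TPM. Pdia2, the isomerase of the exocrine pancreas, was the lowest detected relative at 1.98 TPM in library 1 and 4.95 TPM in library 2. Pdilt, Erp27, Agr2, Agr3, Casq1 and Casq2 were under 1 CPM in both libraries, and Pdilt, the isomerase of the testis, had 0 reads and 1 read.

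All 11 ER folding partners found (of 12 symbols listed, Mesdc2 being an older symbol of Mesd) were detected, and their median was 371 TPM. The chaperone Hspa5 (BiP) led with 1843 ± 111 TPM, ahead of Calr (calreticulin) with 1270 ± 88.4 TPM and Hsp90b1 with 1000.2 ± 51.7 TPM (SD, n = 2), and Mesd was lowest with 12.1 ± 0.738 TPM. Pdia3 stood close to its lectin partner Calr, at 0.832 of its level in library 1 (95% interval 0.823 to 0.842) and 0.815 in library 2 (0.805 to 0.825). With the principal transcripts Pdia3 stood at 0.707 of the level of Calr. By TPM, Pdia3 exceeded the membrane-bound lectin Canx (calnexin) 2.78-fold and 2.77-fold. This ratio did not pass a Fisher's exact test of a difference between the libraries (adjusted p = 0.673). P4hb exceeded P4ha1, a catalytic subunit of prolyl 4-hydroxylase with which it assembles, 44.4-fold and 40.3-fold. P4ha2, another such subunit, stood at 20.9 ± 4.80 TPM, and Mttp, its partner in lipid transfer, at 8.40 ± 0.201 TPM (SD, n = 2). P4ha3 had 2 and 4 reads. All 7 genes listed as disulfide-bonded clients were detected, with Ins2, Ins1 and Iapp highest and the insulin receptor gene Insr lowest at 17.7 ± 1.53 TPM (SD, n = 2). Ins2 stood 127-fold above P4hb in library 1 and 132-fold above it in library 2, and 185-fold above it with the principal transcripts.

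Genes that control the unfolded protein response, through which several isomerase genes are known to be induced, were all detected. The 9 genes had a median of 211 TPM. Atf4 led with 453 ± 32.7 TPM, followed by Xbp1 with 425 ± 4.62 TPM and Ppp1r15a with 370 ± 10.9 TPM (SD, n = 2), and Eif2ak3 was lowest with 43.8 ± 3.22 TPM. The counts sum all transcripts of a gene and do not separate spliced from unspliced Xbp1. All 5 genes of peptide loading onto MHC class I, in which Pdia3 takes part, were detected, led by B2m at 200.5 ± 94.3 TPM, followed by Tapbpl at 83.7 ± 13.9 TPM, with Tapbp (tapasin) close behind at a mean of 83.2 TPM and Tap1 lowest at 16.6 ± 9.14 TPM (SD, n = 2). In a list of 6 genes made for clients of Erp44, Sumf1 led at 56.9 ± 3.19 TPM, followed by Itpr3 at 32.6 ± 2.66 TPM and Erap1 at 29.8 ± 4.96 TPM. The list held Itpr1 (18.5 ± 2.63 TPM) beside Itpr2 and Itpr3, and whether each gene encodes a client was not checked. Itpr2 was the lowest of the 5 detected at 3.43 ± 0.622 TPM, and Adipoq had no read.

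Between the libraries, all 10 members stood higher in library 2, by small amounts, as did 43.6% of all genes tested and 45.4% of genes averaging at least 50 CPM. Pdia4 had 282 CPM in library 1 (95% interval 277 to 286) and 387 CPM in library 2 (381 to 393), 1.37-fold higher (1.34 to 1.41). Pdia6 had 604 CPM (597 to 611) and 778 CPM (769 to 787), 1.29-fold higher (1.27 to 1.31). At the other end P4hb had 1784 CPM (1772 to 1796) and 1831 CPM (1818 to 1845), 1.03-fold higher (1.02 to 1.04). Library 2 was the higher one in each. The other 7 lay between 1.04-fold for Txndc5 and 1.17-fold for Pdia5.

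An exact binomial test (two-sided) compared the reads of every gene with the library totals, and p was adjusted by Benjamini-Hochberg across all 20681. This test compares the reads of 2 libraries and not conditions, and the difference has no replicate check. None of the 10 members reached the call, an adjusted p under 0.05 with a 2-fold difference, which 892 genes reached (4.31%), 1.91% of all genes towards library 2. Without the fold threshold all 10 passed towards library 2, against 2769 genes (13.4%) in that direction and 32.4% in either. Small differences pass more easily where reads are many, and of the 4059 genes averaging at least 50 CPM, 27% passed towards library 2. The adjusted p was largest for Txndc5, at 0.0156, and for Ero1a, at 0.00657. The median log2 ratio of the members was 0.15, against −0.04 for all genes tested. Of the 13566 genes detected in both libraries, 4.44% had a ratio as high as that of Pdia4 or higher, and 6.56% as that of Pdia6.

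**Figure D4:**
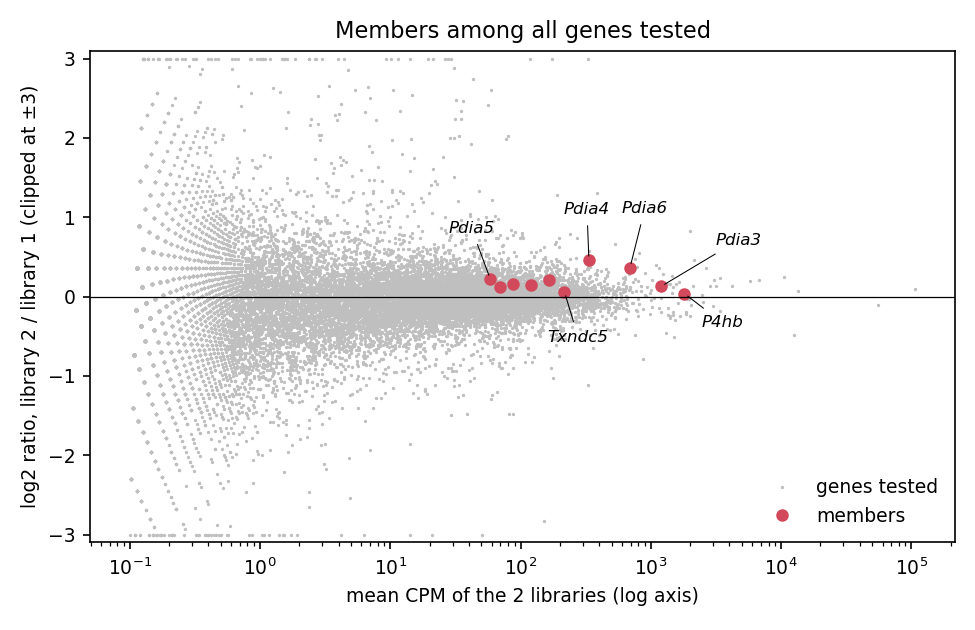
Log2 ratio of library 2 over library 1 against the mean CPM (log axis) for all 20681 genes tested (grey; values beyond ±3 are drawn at ±3) and the 10 members (red). All members lie above 0, with Pdia4 highest at 0.46 and P4hb lowest at 0.04.

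The family was not uniform in this respect. Of the 15 genes tested from the list of relatives, 5 were higher and 10 lower in library 2, with a median log2 ratio of −0.05. Creld2 (log2 ratio 0.57, adjusted p = 4.3e-95, exact binomial test) and Tmx2 (0.29, adjusted p = 5.0e-04) were higher, and Tmx3 (−0.20, adjusted p = 1.1e-06) and Dnajc10 (−0.08, adjusted p = 0.0013) were lower. The count of Tmx2 is uncertain, because other genes hold 26.3% of its words. Pdia2, which is also in the acinar list below, was the only relative called at 2-fold, with 1.24 CPM in library 1 and 3.13 CPM in library 2. The 11 ER folding partners were all higher in library 2, 10 of them with an adjusted p under 0.05, and their median log2 ratio was 0.16. The largest was Sdf2l1, a cofactor of BiP, at 0.63, followed by Dnajb11 at 0.34. Of the 9 sensor and regulator genes, 7 were higher in library 2, with a median log2 ratio of 0.02, and 4 passed in that direction: Ddit3 (CHOP) at 0.39, Atf6b at 0.24, Eif2ak3 at 0.17 and Atf4 at 0.16. Ppp1r15a passed in the other direction at −0.04, and Xbp1 stood at −0.01 (adjusted p = 0.842). Among the thiol redox genes the median was 0.04, with 3 passing towards library 2 (Ero1b at 0.21, Selenos at 0.20 and Vkorc1l1 at 0.13) and 3 passing the other way (Prdx4 at −0.38, Qsox1 at −0.18 and Qsox2 at −0.09).

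Other sets of genes differed between the libraries. All 16 tested of 18 acinar-cell markers were higher in library 2, 15 of them called at 2-fold. The list summed to 265 CPM in library 1 against 814 CPM in library 2. Bhlha15, which was not called, held 126 and 179 CPM of these sums. The acinar markers Prss1 (0 reads in both) and Ptf1a (0 and 3 reads) were at or near 0. The 10 members summed to 4496 CPM in the first library and 4999 CPM in the second. All 15 interferon-response genes were higher in library 2, 13 of them called at 2-fold, summing to 126 CPM and 534 CPM. Of the genes that load MHC class I with Pdia3, Tap1 (also in the interferon list) and B2m were called, at 2.30-fold and 2.02-fold, whereas Pdia3 stood at 1.09-fold. All 7 duct-cell markers were higher in library 2 (5 passing, median log2 ratio 0.36), and all 6 alpha-cell markers were lower (5 passing, median −0.32). Beta-cell markers were split, with 6 passing towards library 2 and 4 passing the other way. Delta-cell markers (1 and 3) and PP-cell markers (1 and 1) were split as well, and Lepr of the delta list was called at 3.37-fold. Of the markers tested, 4 of 6 endothelial, 6 of 7 mesenchymal and 7 of 8 immune genes were lower in library 2. The part of these other cell types or of the interferon response in the values of the members was not tested. In such bulk libraries more cells of a type and more RNA per cell cannot be told apart.

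**Figure D5:**
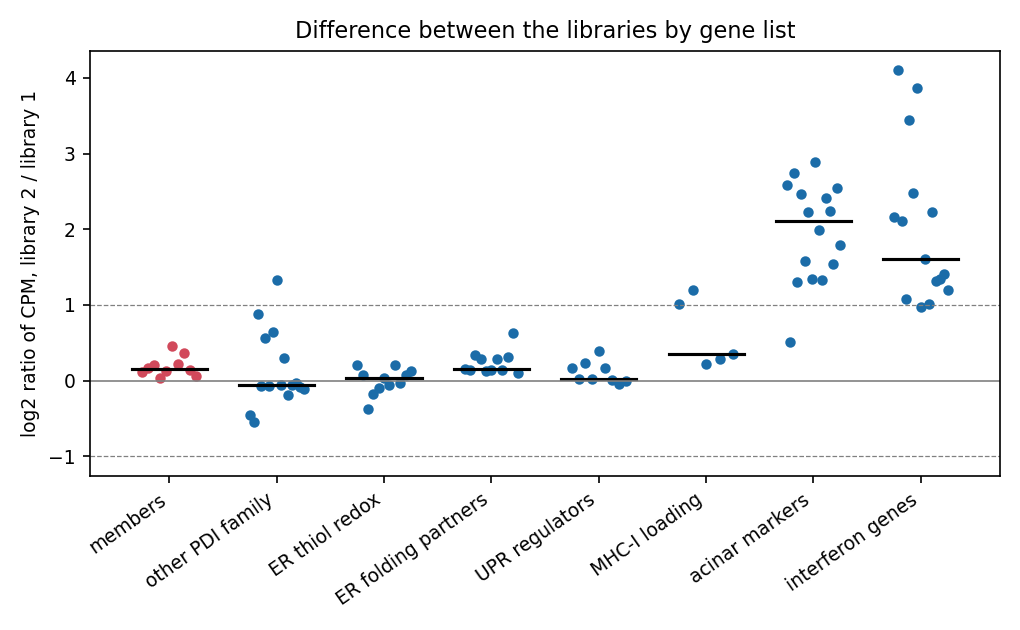
Log2 ratio of library 2 over library 1 for each gene tested in 8 gene lists (points, genes; black bars, medians; dashed lines, 2-fold). The members (red) have a median of 0.15, the ER folding partners 0.16, the acinar markers 2.11 and the interferon genes 1.60.

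Promoters were searched because the unfolded protein response is known to act through short DNA elements near its targets. RefSeq promoter windows on GRCm38.p6 were available for 9 of the 10 members, and the 250 bases before each start were read on both strands. The ER stress response element, CCAAT and CCACG with 9 bases of any kind between them, was present in 1 member, Pdia6, and in 37 of 32851 windows (0.113%). With the last base left free it was present in 3 members (Pdia6, Pdia4 and Pdia3) and in 0.314% of windows. Every match to the first form is also a match to the second. A shorter form, ATTGG and CCACG with 1 base between, was present in no member and in 0.0304% of windows. The element TGACGTGG was present in 2 members, Txndc5 and Txndc11, and in 0.563% of windows (0.603% of genes). Txndc5 had 3 windows and Txndc11 had 2, and not every window of these genes held the match. The matches are printed in the direction of transcription with the element in capitals. Less flanking sequence is given for Pdia3 and Txndc11, where an annotated exon lies close or covers the match. The printed stretches of Pdia3, Txndc5 and Txndc11 lie before a RefSeq start but inside the gene as annotated in GENCODE M21.
Pdia6, chr12:17266461-17266539, plus strand: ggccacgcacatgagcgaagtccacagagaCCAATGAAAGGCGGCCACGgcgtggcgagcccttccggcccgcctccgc
Pdia4, chr6:47813572-47813650, minus strand: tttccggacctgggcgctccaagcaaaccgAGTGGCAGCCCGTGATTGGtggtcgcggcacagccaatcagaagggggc
Pdia3, chr2:121413868-121413896, plus strand: cgcagCCAATCGGCGGCTGCCACActgcg
Txndc5, chr13:38528015-38528082, minus strand: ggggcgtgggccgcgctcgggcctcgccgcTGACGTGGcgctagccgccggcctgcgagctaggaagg
Txndc11, chr16:11134616-11134645, minus strand: tgaagtgtggcTGACGTGGagagtccgggt
In Pdia4 the element lies on the opposite strand, so the capitals show its reverse complement.

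Among the other genes listed, the exact element was present for the folding partners Hspa5, Hsp90b1 (at 2 places), Calr, Canx and Dnajc3, for Creld2 and for Ero1b. Ero1a had no match in its window. Of the 35 genes with the exact element, 20 had enough reads to be tested, and 15 of these were higher in library 2, against 43.6% of all genes tested. These 20 had a median log2 ratio of 0.18, and 8 of them belong to the lists above. Among the 12 that belong to none of the lists above, 7 were higher and the median was 0.14. A match is a string of letters in this window and shows neither binding nor use of the element in these cells.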

How the data were processed

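Sorted mutant beta cells were measured by RNA sequencing in 2 libraries of 1 group. Islets had been dissociated with 0.25% trypsin at 37 degrees Celsius for about 5 minutes, per the labels' protocols. The authors deposited, per the file headers, a raw read count, a TPM value and a CPM value for each gene. Trimming tool cutadapt (2.10), aligner STAR (2.7.8a), counter featureCounts (2.0.2) and genome GRCm38.p6 are listed in the submitters' processing notes. For their parameters, including strand and multiply matching reads, the record is: not given in the sources used here. Each deposited CPM equals the count divided by the library total. The deposited TPM implied a length within 1% of the merged exons of GENCODE M21 in 98.3% of 16229 genes in library 1 and 98.4% of 15318 in library 2. GENCODE M21 held 55227 of the 55487 identifiers. Where a symbol had several identifiers, the one with most reads was used.

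Errors beside means are SDs over the 2 libraries. Shares have exact Clopper-Pearson 95% intervals, and ratios have exact conditional binomial intervals. Differences between libraries used log2 ratios with 0.5 read added and the exact binomial test, which takes only counting error into account. The test was run on simulated counts that also varied by counting error alone. That check therefore does not cover the larger differences between these 2 libraries and does not support the p-values. A quasi-likelihood test needs a second group and was not run. Scaling alternatives used edgeR 4.0.16 and DESeq2 1.42.0, and other steps used Python 3.11.15 with scipy 1.17.1. Pairs and other genes came from lists, and from each list the 3 highest, the lowest detected and the undetected genes by mean TPM, the called genes and the genes of the pairs were named. Tmx2, Tmx3, Sdf2l1, Dnajb11, Ddit3, Atf6b, Vkorc1l1, Qsox1 and Qsox2 were chosen after their values were seen. The members and lists were chosen with earlier results of these data known. The planned search of protein sequences was replaced by a search of coding sequences. Promoter sequences are RefSeq's. Some sequence features of the coding sequences are not reported here.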

Additional observations from a re-analysis of the deposited data

How the results depend on the processing

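The median member level was 132 TPM and lay at 127 to 138 TPM in single libraries. Without length scaling it was 191 CPM. All 10 members kept their place in the order in library 2 alone and 8 in library 1 alone, 5 did by CPM in place of TPM, and 4 did with the length of the principal transcript, an alternative chosen after seeing the data. The direction of all 10 members between the libraries was the same with edgeR's TMM, DESeq2 size factors and totals without insulin genes, Iapp and mitochondrial genes, with a median log2 ratio between 0.15 and 0.20. No member was called at 1.5-fold either, and all 10 were called with no fold threshold. The number of all genes called, 892, became 1664 at 1.5-fold, 6699 with no fold threshold and 531 among genes with 50 reads or more. The exact promoter element was in 1 member, and in 3 with its last base left free. The directions of the 15 gene ratios were the same by CPM and in each library (7 with the first gene higher). With the principal transcript lengths, also chosen after seeing the data, 14 kept their direction and Prdx4 over Ero1a turned, from a log2 ratio of −0.67 to 0.17. The planned search of protein sequences was not run. No paired analysis was possible because there is only 1 group. With 2 libraries, no outlier test applied, and every member had reads far above the floor.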
